A study of Homo sapiens with 12 samples.

Results

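The miRNAs described here are those best known from blood cells, namely miR-142, miR-144, miR-150, miR-223, miR-451a and miR-486. All assays of these miRNAs on the array were taken, whichever arm of the hairpin they measure, which gave 10 miRNA assays beside 362 others: hsa-miR-142-3p, hsa-miR-142-5p, hsa-miR-144-3p, hsa-miR-144-5p, hsa-miR-150-5p, hsa-miR-223-3p, hsa-miR-223-5p, hsa-miR-451a, hsa-miR-486-3p and hsa-miR-486-5p. They were measured by miScript miRNA PCR Arrays in OCI-My5, a human multiple myeloma (plasma cell cancer) line, on 12 arrays for 12 conditions. All cells carried a lentiviral construct and both lines derived from the same OCI-My5 line. My5.LV cells hold the vector alone, express a low level of CRBN (cereblon, the protein that IMiD drugs such as lenalidomide bind) and are IMiD-resistant. My5.CRBN cells express His-tagged CRBN at a high level and are IMiD-sensitive. Each line was analyzed un-treated, with AGO2-sh72 (an shRNA against AGO2, also named EIF2C2), with AGO2 cDNA that carries the tag of the MRP1 antibody 42.4, with 10 µM lenalidomide for 72 hours, with AGO2 cDNA plus 72 hours of lenalidomide, and with lenalidomide for 120 hours. Per the methods, the sh72 and AGO2 cDNA were delivered by lentivirus with puromycin selection, whereas the control cells are labelled as having no treatment, so infection and selection cannot be told apart from the change of AGO2. No array holds cells given DMSO alone, the control in the paper's lenalidomide blots. Solvent and time in culture therefore cannot be told apart from lenalidomide. AGO2 mRNA is not on the array, so the knockdown and the overexpression were not checked here.

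These miRNAs are strong lineage marks. miR-142 is made in nearly all blood cells and in few other tissues, miR-150 is high in mature lymphocytes, where it acts on the transcription factor MYB, and miR-223 is best known from granulocytes and monocytes. miR-144 and miR-451a are cut from a common precursor transcript in red cell precursors, and miR-486 is also abundant there. Most miRNA hairpins are cut by Dicer and then loaded into an Argonaute protein, whereas the hairpin of miR-451a is too short for Dicer and is cut by AGO2 itself.

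Mature sequences are shown because the results turn on the arms of miR-223. They are given for 6 of the 10 members, from RefSeq (GRCh38.p14), and the other members are not shown. The seed, bases 2 to 8 counted from the 5′ end, is in capitals.
miR-142-3p: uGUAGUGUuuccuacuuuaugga
miR-142-5p: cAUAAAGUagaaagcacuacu
miR-144-3p: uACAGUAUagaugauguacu
miR-144-5p: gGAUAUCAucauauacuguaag
miR-223-3p: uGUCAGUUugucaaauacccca
miR-223-5p: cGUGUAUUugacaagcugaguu
No seed was shared among these 6, and none of the 330 array miRNAs with a RefSeq sequence shared a seed with any of them (0 others each). MIR142 lies at chr17:58331232-58331318 on the minus strand. MIR144, at chr17:28861533-28861618, and MIR451A, at chr17:28861369-28861440, are neighbours with 92 bases between them. MIR150 lies at chr19:49500785-49500868 and MIR223 at chrX:66018870-66018979 on the plus strand. In the hairpin of MIR223, which is shown with both mature arms in capitals, the 5p arm comes first and the 3p arm second.
MIR223: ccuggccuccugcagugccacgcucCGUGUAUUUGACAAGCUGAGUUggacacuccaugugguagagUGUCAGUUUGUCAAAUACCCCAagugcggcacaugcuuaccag

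The threshold cycle (Ct), the PCR cycle at which a well crosses the detection threshold, was capped at 35, and the mean Ct of 6 small-RNA control wells was subtracted. The level given below is minus this value, on a log2 scale, so a higher level means more miRNA and 1 unit is 1 PCR cycle, or 2 fold at full efficiency. Between 324 and 367 of all miRNAs were under the cap on each array. Each condition has 1 array, and nothing in the labels says that 2 arrays came from separate cultures, so precision is limited by how few arrays there are. In a single comparison of 2 arrays the spread was taken as the SD of the changes of the 6 control wells, which ran from 0.18 to 0.68. Of the 10 members, 6 were under the cap on all 12 arrays. miR-223-5p was at the cap on 1 array, miR-486-3p on 2, miR-144-3p on 4 and miR-144-5p on 7.

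The steady-state level of miR-142-3p had the lowest or the second lowest Ct of all miRNAs on every array (Ct 12.4 to 18.6, rank 1 or 2). miR-150-5p ranked 15 to 45, and miR-142-5p ranked 31 to 59. miR-486-5p reached rank 101 at best, miR-223-3p ranked 123 to 292 and miR-451a at 189 to 277. The ranks of miR-223-3p and miR-451a overlapped, and ranks compare assays whose PCR efficiencies are not known. The erythroid miR-144-3p was at the cap in both un-treated lines, and miR-144-5p had Ct 33.9 in My5.LV cells and was at the cap in My5.CRBN cells. Thus the pan-blood and lymphocyte miRNAs were abundant and the miR-144 arms were at or near the limit of the assay, while miR-451a and miR-486-5p were detected in both un-treated lines (Ct 29.5 and 30.4 for miR-451a, 26.6 and 27.3 for miR-486-5p). Marker miRNAs of other tissues were also detected. Their Ct values without treatment, with My5.LV first, varied within a tissue. The liver miR-122-5p was near the cap (Ct 33.8 and at the cap). The brain miR-9-5p had Ct 24.3 and 24.1, but the brain miR-124-3p had Ct 28.1 and 28.8. The muscle miR-133a-3p had Ct 25.0 and 25.2, but the muscle miR-206 had Ct 31.2 and 29.9. The epithelial miR-200c-3p had Ct 24.8 and 26.3, miR-141-3p Ct 25.8 and 27.6 and miR-205-5p Ct 30.7 and 30.3. Levels like those of miR-451a and miR-486-5p were therefore not particular to blood-lineage miRNAs.

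**Figure D1:**
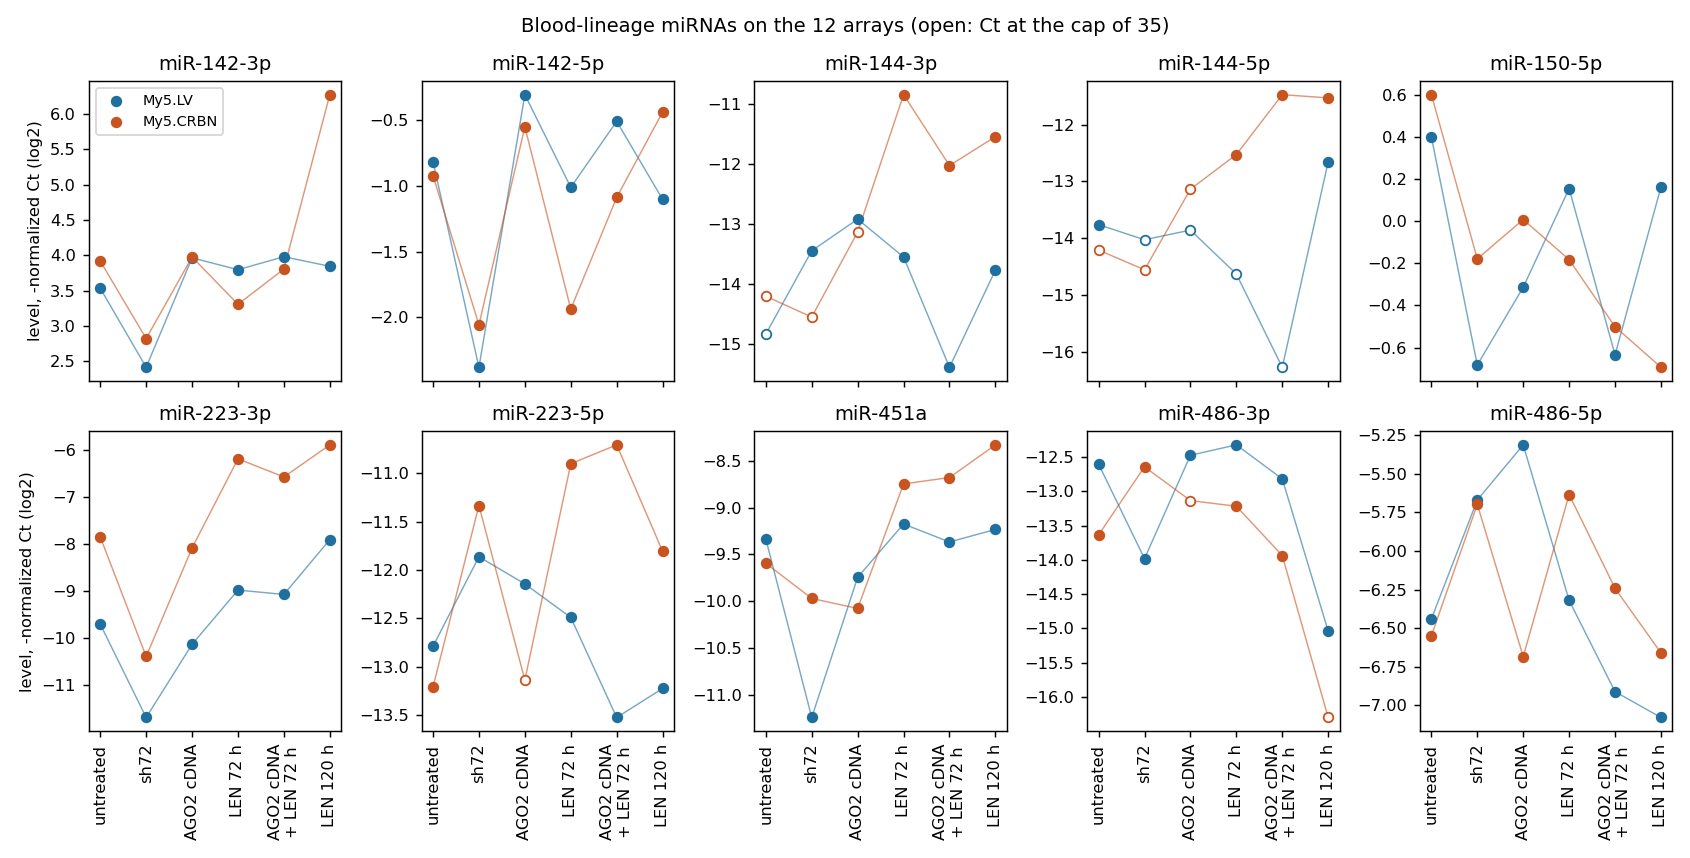
Level (minus normalized Ct, log2 scale, a separate axis for each miRNA) of the 10 blood-lineage miRNAs under the 6 treatments in My5.LV (blue) and My5.CRBN (orange) cells, 1 array per point. Open points are at the Ct cap of 35 and lines only join the arrays of 1 cell line. miR-223-3p was higher in My5.CRBN cells under every treatment, and lowest with sh72 in both lines.

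The first comparison asks which of these miRNAs differ with the level of CRBN. miR-223-3p had the higher level in My5.CRBN cells in all 6 matched pairs of arrays. Its levels in My5.LV cells were -9.70 un-treated, -11.68 with sh72, -10.13 with AGO2 cDNA, -8.98 with lenalidomide for 72 hours, -9.07 with AGO2 cDNA plus lenalidomide and -7.90 with lenalidomide for 120 hours. In My5.CRBN cells the levels in the same order were -7.84, -10.39, -8.08, -6.19, -6.57 and -5.89. The ranges of the lines overlap, because treatments moved both, but within each treatment the My5.CRBN array was higher, by 1.30 (sh72) to 2.79 (lenalidomide for 72 hours). The limma estimate, over the 12 arrays with treatment as a block, was a difference of 2.08 on the log2 scale (SE 0.24, 4.24 fold, adjusted p = 0.00112 over all miRNAs). miR-223-3p was the member called in this comparison, 1 of 10, where 0.538% of all miRNAs were called higher and 0.538% lower in My5.CRBN cells. It and miR-143-3p were the 2 miRNAs of the whole array with a difference of at least 2 fold in favour of My5.CRBN cells in all 6 pairs (0.538%), and 5.91% of all miRNAs were higher in all 6 pairs by any amount. Its difference between the lines was called with each treatment left out in turn (1.94 to 2.24) and with every normalizer tried.

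The other arm of the hairpin did not show the same pattern. The level of miR-223-5p in My5.LV cells ran from -13.52 to -11.86 with a median of -12.64, and in My5.CRBN cells from -13.21 to -10.71 with a median of -11.57, and the lines overlapped. It was higher in My5.CRBN cells in 4 of 6 pairs, and the estimate was 0.82 (SE 0.46, adjusted p = 0.516). miR-150-5p differed by -0.01 (SE 0.24, adjusted p = 0.997) and miR-486-5p by 0.04 (SE 0.29, adjusted p = 0.997). miR-451a had an estimate of 0.45 (SE 0.27, adjusted p = 0.533) and was higher in My5.CRBN cells in 4 of 6 pairs. miR-142-3p gave 0.43 (SE 0.36, adjusted p = 0.713), in which the single array with lenalidomide for 120 hours stands apart, with a difference of 2.43 against -0.49 to 0.41 in the other 5 pairs. The arms with the higher Ct of their hairpins, miR-142-5p and miR-486-3p, gave -0.15 (adjusted p = 0.925) and -0.60 (adjusted p = 0.527), the latter lower in 5 of 6 pairs. The erythroid miR-144-3p and miR-144-5p, with 4 and 7 arrays at the cap, gave 1.27 (adjusted p = 0.345) and 1.30 (adjusted p = 0.416). Over the 10 members the median difference was 0.44, beside -0.01 over all miRNAs.

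**Figure D2:**
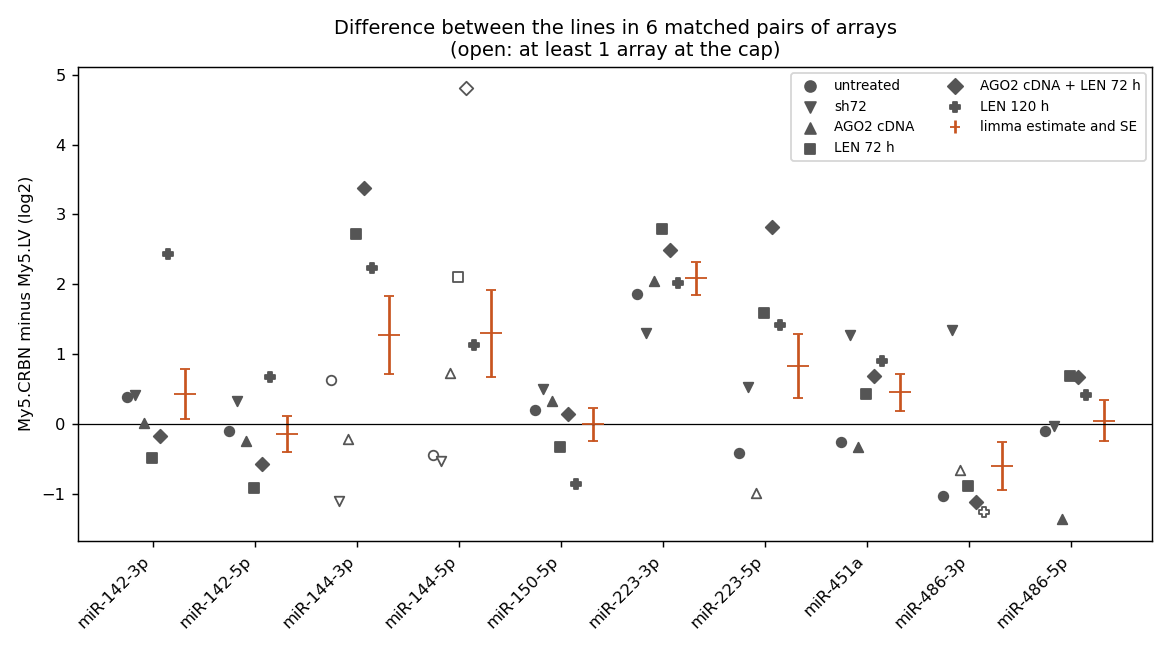
Difference between My5.CRBN and My5.LV cells (log2 scale) for each of the 10 miRNAs in the 6 pairs of arrays with the same treatment, with the limma estimate and its SE in orange. Open symbols have at least 1 array at the cap. The 6 points of miR-223-3p lie between 1.30 and 2.79, all above 0, and points of the miR-144 arms with both arrays at the cap show only the shift of the normalizer.

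The second comparison asks what happens to these miRNAs when AGO2 is targeted by shRNA. miR-223-3p fell the most of the 10, and it fell in both lines: from -9.70 to -11.68 in My5.LV cells and from -7.84 to -10.39 in My5.CRBN cells. These are changes of -1.98 (3.95 fold) and -2.54 (5.83 fold), against SDs of the control wells of 0.51 and 0.30. Counted from the lowest of all changes on the array, miR-223-3p stood at place 39 in My5.LV cells and place 3 in My5.CRBN cells. The limma estimate over both lines was -2.26 (SE 0.42, adjusted p = 0.0127). miR-142-5p, the arm of miR-142 with the higher Ct, fell from -0.81 to -2.38 (My5.LV) and from -0.92 to -2.06 (My5.CRBN), an estimate of -1.35 (SE 0.44, adjusted p = 0.045). Its places were 91 and 104 from the lowest. These 2 of the 10 members were called lower, where 28.5% of all miRNAs were called lower and 0.806% higher, and the median change was -0.62 over the members and -0.59 over all miRNAs. With the global mean of the miRNAs as normalizer the split over all miRNAs turned from 3 higher and 106 lower to 10 higher and 1 lower, and the median change of all miRNAs moved to 0.11. No member was then called, with -1.56 for miR-223-3p (adjusted p = 0.0633) and -0.65 for miR-142-5p (adjusted p = 0.359). The call of miR-142-5p was also lost with the SNORD wells alone as normalizer (-1.21, adjusted p = 0.0709) and without the arrays with AGO2 cDNA plus lenalidomide (-1.35, adjusted p = 0.0624).

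None of the other members was called with the mean of the control wells as normalizer. With RNU6-2 alone, miR-142-3p (-1.82, adjusted p = 0.0274), miR-150-5p (-1.65, adjusted p = 0.0139) and miR-451a (-1.86, adjusted p = 0.0119) were called too. With this normalizer 5 of the 10 members were called lower, and of all miRNAs 179 were called lower and 1 higher. The median change of all miRNAs was then -1.31, so these calls were part of a shift of the whole array. miR-150-5p was also called with a variance trend (adjusted p = 0.048), and miR-142-3p without the arrays with lenalidomide for 120 hours (adjusted p = 0.0451). miR-142-3p had changes of -1.12 (My5.LV) and -1.10 (My5.CRBN) (estimate -1.11, SE 0.62, adjusted p = 0.223). miR-150-5p had changes of -1.09 and -0.78 (estimate -0.93, SE 0.41, adjusted p = 0.12). miR-486-5p had positive changes in both lines, 0.77 and 0.85, at places 328 and 337 (adjusted p = 0.283). miR-223-5p also had positive changes, 0.93 and 1.87, the latter 3.67 fold and place 368 (estimate 1.40, SE 0.79, adjusted p = 0.224). In My5.LV cells miR-144-3p was higher by at least 2.63 fold and miR-144-5p lower by at least 1.20 fold, and both were at the cap on both My5.CRBN arrays. miR-486-3p had opposite signs, with a change of -1.38 (My5.LV) and 0.99 (My5.CRBN). In single arrays of My5.LV cells, miR-223-3p and miR-451a passed 3 fold downward, 2 of 10 members where 23.7% of all miRNAs did, and none upward, where 1.88% did. In those of My5.CRBN cells miR-223-3p passed 3 fold downward, 1 of 10 where 12.9% of all miRNAs did, and miR-223-5p upward, 1 of 10 where 1.61% did.

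**Figure D3:**
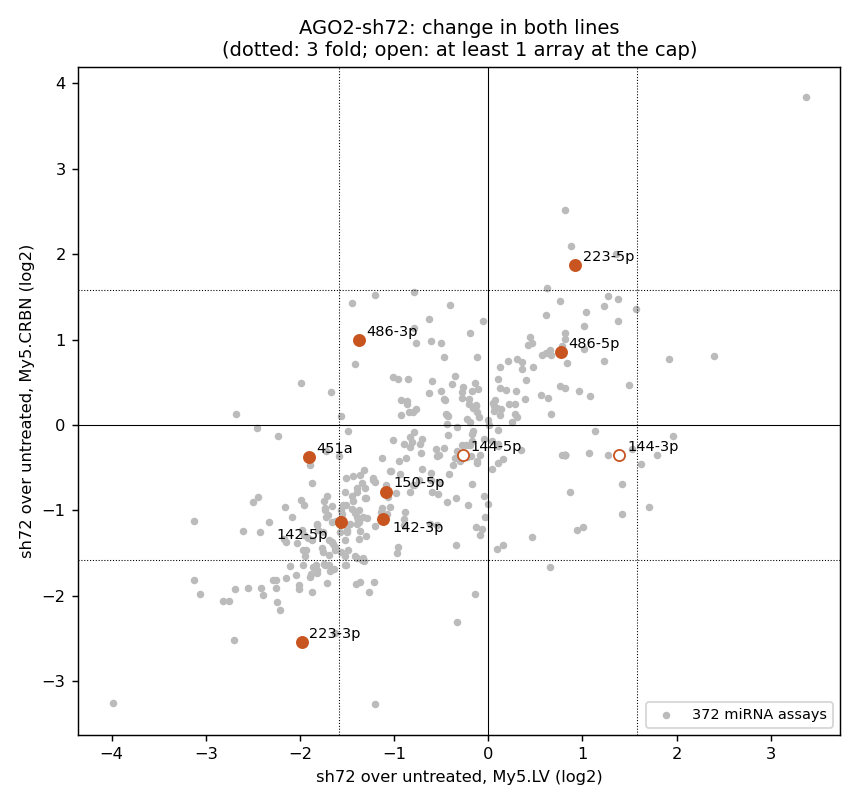
Change with AGO2-sh72 over the un-treated array (log2 scale) in My5.LV (x axis) and My5.CRBN (y axis) cells for all miRNAs (grey) and the 10 blood-lineage miRNAs (orange, open where at least 1 of the 4 arrays is at the cap). Dotted lines mark 3 fold. miR-223-3p lies at -1.98 and -2.54, while miR-223-5p, from the same hairpin, lies at 0.93 and 1.87.

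The arms of miR-223 thus had changes of opposite sign with sh72. The difference between arms of a hairpin does not depend on the normalizer. The arms are measured by separate assays whose PCR efficiencies are not known. The difference on 1 array is therefore not a ratio of amounts, while its changes between arrays can be compared. In My5.LV cells the 3p arm exceeded the 5p arm by 3.09 un-treated, by 0.18 with sh72 and by 2.02 with AGO2 cDNA. It exceeded the 5p arm by 3.51 with lenalidomide for 72 hours, by 4.46 with AGO2 cDNA plus lenalidomide and by 5.32 with lenalidomide for 120 hours. In My5.CRBN cells the 3p arm exceeded the 5p arm by 5.36 un-treated, by 0.95 with sh72 and by at least 5.06 with AGO2 cDNA, where the 5p arm was at the cap. With lenalidomide in these cells the difference was 4.71 at 72 hours, 4.13 with AGO2 cDNA and 5.92 at 120 hours. The sh72 array was the lowest of its line in both lines, and its values did not overlap those of the other 10 arrays. Against the un-treated array the difference changed by -2.91 (My5.LV) and -4.42 (My5.CRBN). Among the 72 hairpins with both arms under the cap on these 4 arrays, 2 had a difference at least 3 fold lower in both lines (2.78%), namely miR-223 and miR-19a, and 27.8% had a lower difference in both lines by any amount. The miR-223-5p wells had Ct values from 29.97 to the cap, and their own well-to-well spread is not known. The 2 wells of cel-miR-39, a control, differed by a root mean square of 1.43 cycles, against 0.19 for the reverse transcription control. No test was made of the arm difference.

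The arms of miR-142 and of miR-486 kept their order on every array where both were measured. The 3p arm of miR-142 exceeded its 5p arm by 4.27 to 6.71 (median 4.82, 12 arrays), and the highest value, 6.71, was that of My5.CRBN cells with lenalidomide for 120 hours, while the other 11 arrays lay between 4.27 and 5.24. This array differed from the un-treated My5.CRBN array by 1.87, and 6 of 74 hairpins (8.11%) had a 3p arm that gained at least 3 fold on the 5p arm in that comparison. In miR-486 the 5p arm had the lower Ct, with 3p minus 5p differences of -8.31 to -5.91 (median -7.12, 10 arrays). Both miR-144 arms were under the cap on 4 arrays, where the 3p arm differed from the 5p arm by -1.12 to 1.69.

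**Figure D4:**
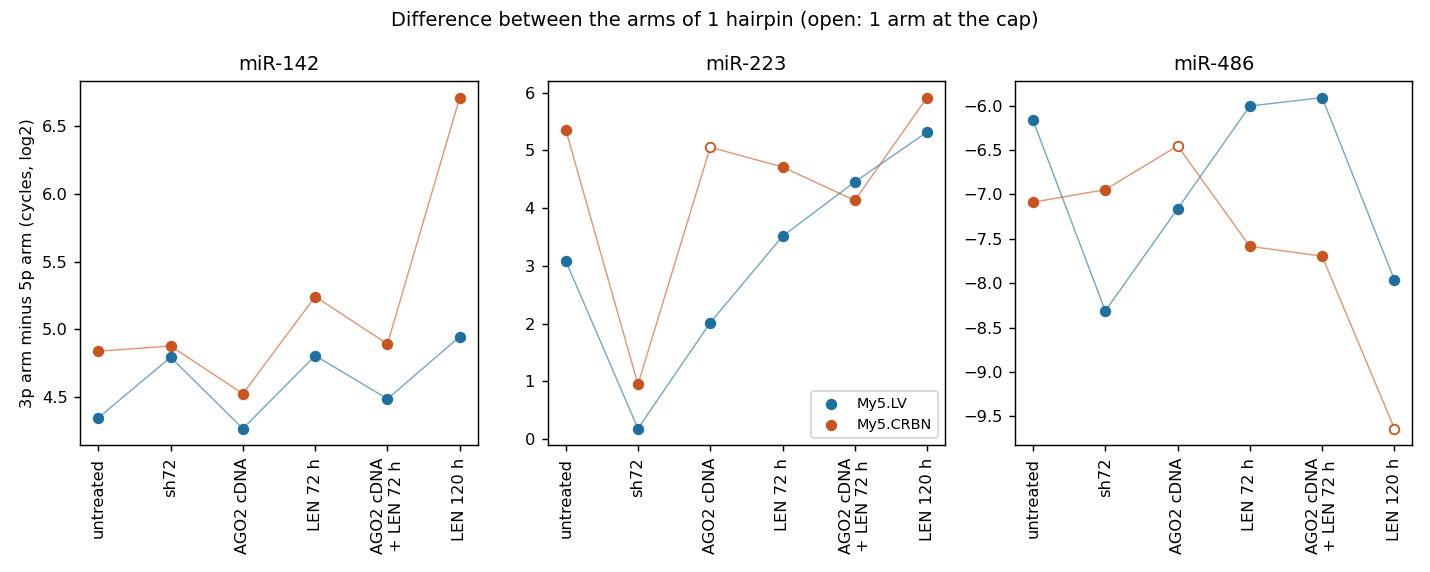
Level of the 3p arm minus that of the 5p arm (cycles, log2 scale) for miR-142, miR-223 and miR-486 under the 6 treatments, in My5.LV (blue) and My5.CRBN (orange) cells, 1 array per point, open where 1 arm is at the cap and the value is a bound. For miR-223 the sh72 arrays lie at 0.18 and 0.95 and the other 10 between 2.02 and 5.92.

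miR-451a, the miRNA cut by AGO2 in place of Dicer, was then set against the other 9 members under both changes of AGO2. In My5.LV cells its level was -9.34 un-treated, -11.24 with sh72 and -9.74 with AGO2 cDNA. In My5.CRBN cells the level was -9.59 un-treated, -9.97 with sh72 and -10.08 with AGO2 cDNA. The sh72 array was the lowest of the 6 in My5.LV cells, 3.75 fold under the un-treated array, whereas in My5.CRBN cells the change of -0.38 was little more than the SD of the control wells (0.30), and the array with AGO2 cDNA was lower still. Counted from the lowest, miR-451a stood at place 47 in My5.LV and at place 201 in My5.CRBN cells with sh72. The limma estimate over both lines was -1.14 (SE 0.46, adjusted p = 0.0907). The other 5 members under the cap on all arrays, which depend on Dicer, had changes of -1.98 to 0.77 (My5.LV) and -2.54 to 0.85 (My5.CRBN), so miR-451a lay inside their range in both lines. With AGO2 cDNA miR-451a had changes of -0.41 (My5.LV) and -0.48 (My5.CRBN), and the other 5 members under the cap on all arrays had changes of -0.71 to 1.13 and of -0.59 to 0.37.

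The level of miR-451a minus the mean level of the other 9 members was 0.71 lower on the sh72 arrays than on the other arrays of the same line (difference -0.71). The difference was -1.36 for My5.LV and -0.05 for My5.CRBN cells. The exact permutation test within lines, two-sided over 36 arrangements, gave p = 0.111, where the smallest p it allows is 0.0278. For AGO2 cDNA the difference was also -0.71 (-0.61 and -0.81, exact permutation p = 0.0833). Neither passed 0.05. Each test moves 1 treatment label among the 6 arrays of a line. Its reference therefore holds the other active treatments beside the un-treated array, and no replicate culture. The p-values do not set either change of AGO2 against un-treated cells alone. In My5.LV cells miR-451a minus the mean of the others was -1.89 un-treated, -3.317 with sh72 and -2.69 with AGO2 cDNA. In My5.CRBN cells the values in this order were -2.255, -2.35 and -2.98. With levels taken relative to miRNAs of similar mean Ct the difference for sh72 was -1.33 (exact permutation p = 0.0278) and that for AGO2 cDNA -0.22 (p = 0.694). With the median of the other members in place of their mean the values were 1.55 (exact permutation p = 0.0278) and 0.06 (p = 0.889), but that median was the level of miR-223-3p itself on 11 of the 12 arrays, so these values set miR-451a against miR-223-3p and not against the group. With only the 5 members under the cap on all arrays as the others it was -0.30 for sh72 (exact permutation p = 0.472) and -0.67 for AGO2 cDNA (p = 0.0556), an alternative chosen after seeing the data. The direction, the size and the call for sh72 therefore depended on what miR-451a was set against.

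**Figure D5:**
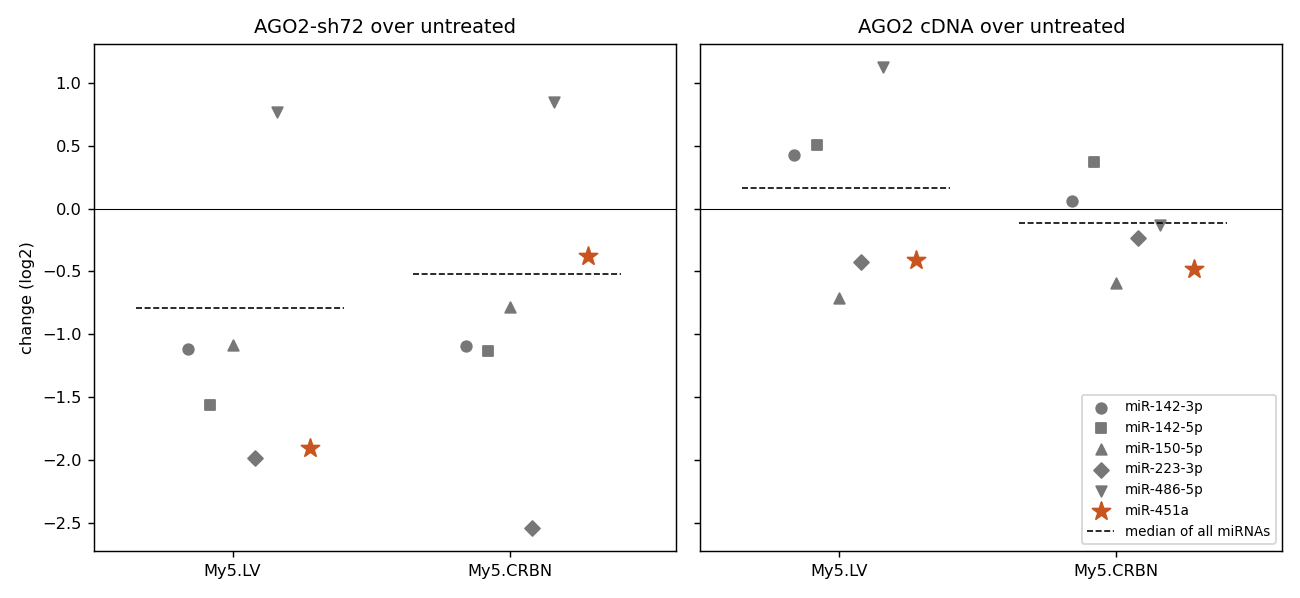
Change over the un-treated array (log2 scale) with AGO2-sh72 (left) and AGO2 cDNA (right) for miR-451a (star) and the 5 other members under the cap on all 12 arrays, in each cell line, 1 pair of arrays per point. The dashed line is the median change of all miRNAs. miR-451a lies within the range of the others in each of the 4 comparisons.

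Between AGO2 cDNA and un-treated arrays limma called 0 of the 10 members and 0 of all miRNAs (0%). At an unadjusted p under 0.05 there were 0 members and 35 miRNAs. The values of miR-142-5p differed from the un-treated ones by 0.51 (My5.LV) and 0.37 (My5.CRBN), and those of miR-142-3p by 0.43 and 0.06, where the SDs of the control wells were 0.41 and 0.56. miR-150-5p had changes of -0.71 and -0.59 (adjusted p = 0.594). In single arrays, miR-144-3p was at least 3.79 fold higher with AGO2 cDNA in My5.LV cells, since it was at the cap without treatment, and 5.91% of all miRNAs were at least 3 fold higher there, with 0.806% lower and 0 members. In My5.CRBN cells 0 members passed 3 fold, where 2.15% of all miRNAs did upward and 6.18% downward.

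Set directly against sh72, the AGO2 cDNA arrays had higher miR-142-5p (estimate 1.79, SE 0.44, adjusted p = 0.026) and higher miR-223-3p (1.93, SE 0.42, adjusted p = 0.0195). miR-142-5p differed by 2.07 (My5.LV) and 1.51 (My5.CRBN), and miR-223-3p by 1.55 and 2.31. These 2 of 10 members were called higher, where 25.0% of all miRNAs were (0.269% lower), and the median over all miRNAs was 0.64. Normalized to the global mean, 3 miRNAs were called higher and 1 lower, the median over all miRNAs was -0.04, and neither member was called (adjusted p = 0.216 and 0.121). This comparison shares its sh72 arrays with the comparison of sh72 and un-treated cells. Without the un-treated arrays the adjusted p of miR-142-5p was 0.0508. miR-451a differed by 1.5 (My5.LV) and -0.11 (My5.CRBN), with an adjusted p of 0.351.

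The third comparison follows lenalidomide. After 120 hours the level of miR-223-3p rose in both lines, by 1.80 (My5.LV, 3.47 fold) and 1.95 (My5.CRBN, 3.88 fold), and it was the highest of the 6 arrays in each. The estimate was 1.88 (SE 0.42, adjusted p = 0.0267). miR-486-3p, the arm of miR-486 with the higher Ct, fell from -12.60 to -15.04 in My5.LV cells (5.41 fold). In My5.CRBN cells it fell from -13.64 to the cap, at least 6.33 fold, and its estimate was -2.55 (SE 0.60, adjusted p = 0.0318). Its Ct was above 32 on all 4 arrays of this comparison, so with a Ct cap of 32 no change could be measured, and in My5.CRBN cells the fall is a bound. Each direction held 1 of the 10 members, where 0.806% of all miRNAs were called higher and 6.99% lower. The other arm of miR-486, miR-486-5p, had changes of -0.64 and -0.11 (adjusted p = 0.714). miR-142-3p had a change of 0.31 in My5.LV but 2.35 (5.11 fold) in My5.CRBN cells, where its Ct of 12.4 was the lowest it reached (estimate 1.33, SE 0.62, adjusted p = 0.249). The highest changes in single arrays of My5.CRBN cells included both miR-144 arms, at least 6.36 fold for miR-144-3p and at least 6.42 fold for miR-144-5p. In these cells 4 of the 10 members were past 3 fold upward, where 5.11% of all miRNAs were, and 1 was past it downward, where 10.8% were. In My5.LV cells 1 member was past 3 fold upward (4.30% of all miRNAs) and 1 downward (14.2%).

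After 72 hours limma called 0 members and 0 of all miRNAs (0%), with 2 members and 18 miRNAs at an unadjusted p under 0.05. These 2 members were miR-144-3p (2.33, SE 0.97) and miR-223-3p (1.19, SE 0.42), both with an adjusted p of 0.935. In My5.CRBN cells 4 of the 10 members were past 3 fold upward, where 9.95% of all miRNAs were, and none downward, where 0.269% were. The 4 were miR-223-3p (3.15 fold), miR-223-5p (4.94 fold), miR-144-3p (at least 10.3 fold) and miR-144-5p (at least 3.21 fold). In My5.LV cells no member passed 3 fold, where 0.538% of all miRNAs did upward and 0.538% downward. With AGO2 cDNA plus 72 hours of lenalidomide limma again called 0 members and 0 miRNAs (0%), with 2 members and 28 miRNAs at an unadjusted p under 0.05. In My5.CRBN cells 3 members were past 3 fold upward, where 4.30% of all miRNAs were, and none downward (0.806%). The 3 were miR-223-5p (5.66 fold), miR-144-3p (at least 4.55 fold) and miR-144-5p (at least 6.68 fold). Of My5.LV cells, miR-144-5p was lower by at least 5.72 fold, 1 member where 5.11% of all miRNAs were past 3 fold downward and 2.42% upward. Over the 10 treated arrays miR-150-5p had changes of -1.30 to -0.24 against the un-treated array of its line. The share of all miRNAs that were lower on all 10 was not counted. Its change of -0.24, in My5.LV cells at 120 hours, was within the SD of the control wells (0.41), at place 164 from the lowest. No limma contrast called miR-150-5p with the mean of the control wells as normalizer and no variance trend. With RNU6-2 alone it was called both for sh72 and for AGO2 cDNA plus lenalidomide. With RNU6-2 alone 179 and 17 of all miRNAs were called lower in these contrasts, and the medians of all miRNAs were -1.31 and -1.055. The 10 changes of miR-150-5p share the 2 un-treated arrays.

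The miR-144 arms and miR-223-5p had larger differences between the lines on the arrays with lenalidomide. For miR-144-3p, My5.CRBN minus My5.LV was 2.71 at 72 hours, 3.37 with AGO2 cDNA and 2.23 at 120 hours, all 6 arrays under the cap. Without lenalidomide both un-treated arrays were at the cap, and with sh72 and AGO2 cDNA the My5.CRBN array was at the cap, with differences of at most -1.11 and -0.22. For miR-144-5p the differences with lenalidomide were at least 2.11, at least 4.81 and 1.13, and 2 of the 3 pairs without it had both arrays at the cap. For miR-223-5p the differences were 1.59, 2.82 and 1.42 with lenalidomide and -0.42, 0.53 and at most -0.99 without it. Past 3 fold in favour of My5.CRBN cells in single pairs were 1 of 10 members un-treated (2.15% of all miRNAs), 0 with sh72 (3.23%), 1 with AGO2 cDNA (1.61%), 4 with lenalidomide for 72 hours (9.41%), 4 with AGO2 cDNA plus lenalidomide (5.11%) and 3 at 120 hours (6.45%). In a limma model with a line-by-lenalidomide term, chosen after seeing the data, the line difference with lenalidomide was called for 3 of 10 members, where 3.23% of all miRNAs were called higher. These were miR-144-3p (2.77, SE 0.38, adjusted p = 0.00625), miR-223-3p (2.43, SE 0.29, adjusted p = 0.0028) and miR-223-5p (1.94, SE 0.39, adjusted p = 0.0339), while miR-144-5p had 2.68 (SE 0.63, adjusted p = 0.0589). Without lenalidomide it was called for 1, miR-223-3p (1.73, SE 0.29, adjusted p = 0.0464; 0.806% of all miRNAs higher). The term itself was called for miR-144-3p (3.00, SE 0.54, adjusted p = 0.0428; 1.34% of all miRNAs). Its value is not a measured fold, since all 3 My5.CRBN arrays without lenalidomide and the un-treated My5.LV array were at the cap, and the term was chosen with this pattern in view, so the p-value is not independent of it. The term was not called for miR-223-5p (2.23, SE 0.56, adjusted p = 0.184) or miR-223-3p (0.70, SE 0.41, adjusted p = 0.416). The call of miR-144-3p was lost whichever treatment was left out, with values that stayed at 2.56 to 3.44 (adjusted p = 0.0839 to 0.191), with a Ct cap of 32 (0.81, adjusted p = 0.539, where 10 of the 12 arrays are then at the cap) and with the global mean as normalizer (2.74, adjusted p = 0.129). The mean Ct of the control wells was 19.1 and 20.3 on the My5.CRBN arrays with lenalidomide for 72 hours (without and with AGO2 cDNA), 18.7 at 120 hours and 20.4 to 21.9 on those without, and the level at the cap shifts with it. On the My5.LV arrays it was 20.4, 18.7 and 19.6 in the same order, and 20.2 to 21.1 without lenalidomide. With AGO2 cDNA plus lenalidomide, the Ct before normalization in My5.LV and My5.CRBN cells was 34.1 and 32.35 for miR-144-3p. For miR-223-5p it was 32.2 and 31.0. The part of the control wells in the result was not tested.

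The profiles of the 6 members under the cap on all arrays were compared with those of 308 other such miRNAs, over 12 arrays that share the normalizer and the treatments. miR-223-3p was most like miR-424-5p (Pearson r 0.95), miR-143-3p (0.94) and miR-455-5p (0.93). miR-451a was most like miR-190a-5p (0.94), miR-10a-5p (0.92) and miR-499a-5p (0.92), and its closest member was miR-223-3p (0.84). miR-142-5p was most like miR-301a-3p (0.90), miR-33a-5p (0.88) and miR-138-5p (0.86), and its own 3p arm reached 0.73. miR-142-3p was most like miR-589-3p (0.85), miR-181a-5p (0.84) and miR-101-3p (0.78). miR-486-5p was most like miR-574-3p (0.91), miR-575 (0.91) and miR-195-3p (0.91). miR-150-5p was most like miR-328-3p (0.71), miR-183-3p (0.70) and miR-342-5p (0.66), and its closest member was miR-142-5p (0.11). The closest member of miR-486-5p was miR-150-5p (-0.24). With the global mean as normalizer 15 of these 18 pairs were named again. miR-19b-3p (0.805) replaced miR-301a-3p for miR-142-5p, miR-504-5p (0.70) replaced miR-328-3p for miR-150-5p, and miR-661 (0.92) replaced miR-575 for miR-486-5p. The closest member of miR-150-5p was then miR-486-5p (-0.04).

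As other miRNAs with roles in blood cells, 24 assays were taken, among them the miR-17 to miR-92a cluster, miR-155, miR-181 and miR-221. With sh72, 14 of the 24 were called lower and 0 higher, where 28.5% of all miRNAs were called lower. Their median change was -1.26, beside -0.62 for the 10 members and -0.59 for all miRNAs. With the global mean as normalizer 1 miRNA of the whole array was called lower, so at most 1 of the 24 could be. Their lowest value was miR-155-5p (-2.24, adjusted p = 0.147) and their highest miR-221-3p (1.09, adjusted p = 0.0568). miR-155 is made in activated lymphocytes, and miR-221 acts on the cell cycle inhibitor p27. In AGO2 cDNA against sh72 arrays 11 of the 24 were called higher, where 25.0% of all miRNAs were, and with the global mean 3 miRNAs of the whole array were. miR-15a-5p was highest (1.98, adjusted p = 0.00898) and miR-222-3p lowest (0.31, adjusted p = 0.705). In the line comparison and at 120 hours of lenalidomide 0 of the 24 were called, with 4 and 5 at an unadjusted p under 0.05. miR-155-5p was highest in My5.CRBN over My5.LV (1.78, adjusted p = 0.175), where miR-17-5p was lowest (-0.53, adjusted p = 0.37). At 120 hours miR-10a-5p was highest (1.89, adjusted p = 0.0897) and miR-155-5p lowest (-2.73, adjusted p = 0.16). In the model with the line-by-lenalidomide term, the line difference with lenalidomide was called for 1 of the 24, miR-155-5p (3.16, adjusted p = 0.0305), with 9 at an unadjusted p under 0.05, and was lowest for miR-17-5p (-0.91, adjusted p = 0.111). Without lenalidomide limma called 0 of the 24, with 1 at an unadjusted p under 0.05, and miR-126-3p was highest (0.68, adjusted p = 0.49) and miR-15a-5p lowest (-0.25, adjusted p = 0.787). The term itself was called for 0 of the 24, with 2 at an unadjusted p under 0.05, and was highest for miR-155-5p (2.76) and lowest for miR-20a-5p (-0.91), both with an adjusted p of 0.288. Of all miRNAs 85 had an unadjusted p under 0.05 with lenalidomide, 32 without it and 58 for the term. None of the 24 was called in the other contrasts with un-treated cells (limma, 3, 1 and 0 at an unadjusted p under 0.05 with AGO2 cDNA, lenalidomide for 72 hours and both). There 35, 18 and 28 of all miRNAs had an unadjusted p under 0.05. With AGO2 cDNA miR-221-3p was highest (2.27, adjusted p = 0.0637) and miR-155-5p lowest (-1.19, adjusted p = 0.686). At 72 hours miR-10a-5p was highest (1.38) and miR-20a-5p lowest (-0.67), both with an adjusted p of 0.935. With AGO2 cDNA plus lenalidomide miR-21-5p was highest (0.70, adjusted p = 0.933) and miR-155-5p lowest (-1.45, adjusted p = 0.959).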

How the data were processed

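The authors deposited a table with the threshold cycle of each well, as non-normalized values per the file headers, for 384 wells on 12 miScript miRNA PCR Arrays, for which total RNA was reverse transcribed (miScript II) and amplified on an Applied Biosystems cycler. The deposited Ct values are scores of single wells on a log2 scale of cycles. The authors' table of fold changes holds their own comparisons and was not used. Ct values above 35 or undetermined were set to 35, the mean Ct of 6 small-RNA wells was subtracted, and the sign was turned.

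Levels were fitted with limma 3.58.1 (R 4.3.3), with cell line and treatment as terms, and p-values were adjusted by Benjamini-Hochberg over 372 miRNAs and called under 0.05. The fit has 2 arrays per treatment and 6 per line, so its spread is the disagreement between the lines and not between replicate cultures. Changes between single arrays were called at 3 fold and have no p-value. Where 1 of 2 compared arrays was at the cap the change is a bound, and where both were there is none. miR-451a was set against the mean of the other members by an exact permutation of the arrays within lines. Each treatment was thereby compared with all other arrays of its line, treated and un-treated. All members, the 3 miRNAs most like each member and the highest and lowest of the 24 comparison miRNAs in each contrast were named. The members, the lists and the tests were chosen with earlier results of these data known. In simulated data with 60 changed miRNAs the line comparison recovered 98.3% and the sh72 comparison 86.7% of log2 changes of 2, and 43.3% and 0% of log2 changes of 1. Other normalizers, Ct caps, thresholds and left-out treatments were tried. Python 3.11.15 with pandas 2.3.3 was used for the rest. Mature sequences and positions came from RefSeq (GRCh38.p14).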

Additional observations from a re-analysis of the deposited data

Results flagged for a closer look

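The limma line-by-lenalidomide term of miR-144-3p was 3.00 on the log2 scale (adjusted p = 0.0428). It was chosen after seeing this pattern, every pair of arrays without lenalidomide has at least 1 array at the cap, so its value depends on the cap. It was 0.81 with a Ct cap of 32 (adjusted p = 0.539) and, with a value of 2.56 to 3.44, not called when any treatment was left out. The remaining results are single-array changes of opposite sign in the cell lines, and the difference was not tested. Each change was larger than the SD of the control wells, but these wells are far more abundant than miR-486-3p and miR-223-5p, whose own well-to-well spread is not known. With sh72, the change of miR-486-3p was 2.37 higher for the My5.CRBN line (0.99 against -1.38). With lenalidomide for 72 hours, the change of miR-142-3p was 0.87 lower in My5.CRBN cells (difference -0.87, from -0.61 against 0.26). With AGO2 cDNA plus lenalidomide, the change of miR-223-5p was 3.24 higher in My5.CRBN cells (2.50 against -0.74), and with lenalidomide for 120 hours it was 1.84 higher (1.40 against -0.44). Groups of 1 array could not be searched for outlying samples.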

How the results depend on the processing

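The line difference of miR-223-3p kept its call and direction under each alternative tried (1 member called in every setting). The number of members called with sh72 (2) was 0 when normalized to the global mean, 5 to RNU6-2 and 1 to the SNORD wells, and 1 to 3 with a treatment left out. Normalized to RNU6-2, 179 of all miRNAs were called lower with sh72 and 1 higher. For AGO2 cDNA against sh72 (2) it was 0 with the global mean and 1 to 3 with a treatment left out. For lenalidomide at 120 hours (2) it was 1 with a Ct cap of 32, under which miR-486-3p has no measured value in this comparison, and 1 with only the miRNAs under Ct 35 on all arrays, since miR-486-3p is then not tested, and 2 in each case with a treatment left out. For AGO2 cDNA plus lenalidomide (0) it was 1 with RNU6-2 alone, where 17 of all miRNAs were called lower and 0 higher. For the line-by-lenalidomide term (1) it was 0 with the global mean, 0 with the SNORD wells, 0 with a cap of 32, 0 with only the miRNAs under Ct 35, 0 with a variance trend and 0 to 0 with a treatment left out. Single-array calls at 3 fold over both lines were 4 with sh72, and 8 with RNU6-2 alone, 2 with a cap of 32 and 11 at 2 fold. With AGO2 cDNA there was 1, and 0 with RNU6-2 alone, 0 with a cap of 32, 0 among members under the cap on both arrays and 2 at 2 fold. With lenalidomide for 72 hours there were 4, and 2 with the global mean, 1 with a cap of 32 and 2 under the cap on both arrays. With AGO2 cDNA plus lenalidomide there were 4, and 7 with RNU6-2 alone, 0 with a cap of 32, 1 under the cap on both arrays and 7 at 2 fold. At 120 hours there were 7, and 3 with a cap of 32, 4 under the cap on both arrays and 12 at 2 fold. Between the lines there were 13, and 8 with a cap of 32 and 23 at 2 fold. For miR-451a the difference with sh72 (-0.71) was 1.55 against the median of the others, which is mostly miR-223-3p itself, and -1.33 relative to miRNAs of similar Ct. That with AGO2 cDNA (-0.71) was 0.063 against the median, -0.22 relative to miRNAs of similar Ct and -1.21 with a Ct cap of 32 (exact permutation p = 0.0556). The cause was not tested where none is given. The lines were paired by treatment in the fit itself, and the labels give no replicate numbers for another pairing.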
